A study of Mus musculus with 2 samples.

Results

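Caveolins and cavins are the coat proteins of caveolae, the small flask-shaped pits of the plasma membrane. Of the 22882 gene symbols in the heart RNA-seq data, 9 were taken by name: the 3 caveolins Cav1, Cav2 and Cav3, the 4 cavins under their older symbols Ptrf (cavin-1), Sdpr (cavin-2), Prkcdbp (cavin-3) and Murc (cavin-4), and the membrane-shaping ATPase genes Ehd2 and Ehd4. All 9 symbols were found, each on 1 row. The data came from whole hearts of mice with the strain background C57BL6/J, 23 days old and of mixed sex. The control mice were Med1fl/fl, which carry the loxP-flanked Med1 allele without Cre, and the csMed1-/- mice carried the same floxed allele together with Cre driven by the α-myosin heavy chain promoter, which removes Med1 in cardiomyocytes but leaves the other cells of the heart with the gene. Med1 is a subunit of Mediator, the complex that links transcription factors to RNA polymerase II. RNA of 5 hearts was combined for each genotype, so there was 1 library per genotype, no replicate and no test, and every value below describes these 2 libraries.

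A caveolin inserts into the membrane as a hairpin and assembles into oligomers, and cavins bind these oligomers from the cytosol and stabilise the curved pit. Cav1 and Cav2 are the caveolins of endothelial cells, fibroblasts and adipocytes, whereas Cav3 is the caveolin of striated muscle, where it also takes part in building transverse tubules. Ptrf is required for caveolae in muscle and in other tissues, Murc is a cavin of striated muscle, and Sdpr and Prkcdbp vary in amount between tissues. EHD2 forms rings at the neck of the caveola and restrains its movement. EHD4 is a close relative that works mainly on endosomes.

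Med1, the targeted gene, had 3.38 FPKM in Med1fl/fl and 0.412 FPKM in csMed1-/- heart. FPKM divides the fragments of a gene by the length of its transcript and by the size of the library, so levels of different genes can be set side by side. Fold changes are plain ratios of csMed1-/- to Med1fl/fl FPKM. They were read for 10489 genes, those listed at 0 in neither library that reached 1 FPKM in the one or the other, and a ratio was counted when it passed 2-fold. Read totals are not given in the files. Low values of genes with 1 RefSeq transcript step in units of 1 read, and from those steps the libraries were estimated at 56900000 fragments for Med1fl/fl and 79900000 fragments for csMed1-/-, on the assumption that FPKM was scaled by mapped fragments and nothing else.

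The sequences upstream of 4 of the genes are shown because these genes carry the contrasts described below: Cav1 and Sdpr were the members that were lower by more than 2-fold, and Cav3 and Murc are the muscle forms of the families. Each is the stretch of 200 bases before the RefSeq start site in GRCm38.p6 (the first of the start sites for Cav1), read 5′ to 3′. Capitals mark matches, on either strand, to any of 6 searched motifs. These were CANNTG (E-box), GGGCGG (GC box), TATAAA (the core promoter box named for it), AGGTCA (nuclear receptor motif), GATAAG and a loose MEF2 form. The loose MEF2 form let any base stand in its centre, where the MEF2 motif has only A or T.
Cav3 promoter, chr6:112459305-112459504, plus strand: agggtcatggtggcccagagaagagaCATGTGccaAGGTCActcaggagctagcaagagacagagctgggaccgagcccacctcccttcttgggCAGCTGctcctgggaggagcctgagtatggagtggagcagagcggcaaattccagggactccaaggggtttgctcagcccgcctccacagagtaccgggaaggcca
Murc promoter, chr4:48663314-48663513, plus strand: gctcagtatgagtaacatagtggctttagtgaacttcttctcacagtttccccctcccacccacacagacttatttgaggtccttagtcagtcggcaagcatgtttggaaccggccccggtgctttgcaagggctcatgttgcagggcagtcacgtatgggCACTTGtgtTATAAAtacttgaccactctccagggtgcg
Cav1 promoter, chr6:17306135-17306334, plus strand: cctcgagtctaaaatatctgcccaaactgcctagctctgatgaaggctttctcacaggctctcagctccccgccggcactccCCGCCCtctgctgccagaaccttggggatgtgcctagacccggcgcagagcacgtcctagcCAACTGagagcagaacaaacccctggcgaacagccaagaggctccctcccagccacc
Sdpr promoter, chr1:51288926-51289125, plus strand: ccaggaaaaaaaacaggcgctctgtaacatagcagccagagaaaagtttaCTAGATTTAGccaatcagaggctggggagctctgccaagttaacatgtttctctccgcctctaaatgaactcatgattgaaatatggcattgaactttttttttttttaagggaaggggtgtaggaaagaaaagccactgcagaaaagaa

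In the 250 bases before the start, the Cav3 promoter held E-boxes that begin 174 and 106 bases before the start and a nuclear receptor motif at 165. The Murc promoter held an E-box at 39 and a TATA box at 30 bases before the start. The Cav1 promoter held an E-box at 57, a GC box at 118 and, at 221, the letters TTTATA, which read TATAAA on the other strand. The Sdpr promoter held none of these and instead a match to the loose MEF2 form at 150 bases. The central letters there were GATT, so the G keeps it from matching the MEF2 motif itself. Its GC content was 40.4%, against 48.8% for Murc, 56.0% for Cav3 and 59.6% for Cav1. Among 32851 promoter windows of the same length, 66.2% held the E-box letters, 32.7% the GC box and 14.0% the nuclear receptor motif. The TATA box was in 12.4%, the GATAAG letters in 6.55% and the loose MEF2 form in 3.20%. No motif was found in the promoters of both Cav1 and Sdpr, and a match is a description of the letters only. Promoter entries were at hand for 8 of the 9 members, Prkcdbp being the exception.

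Of the 9 members, 8 passed the filter on low values and Cav2 did not. Of these 8 genes, 2 were lower by more than 2-fold in csMed1-/- heart, Cav1 and Sdpr, and 0 were higher by more than 2-fold. Among all genes kept, 31.5% lay past 2-fold, 18.0% lower and 13.6% higher in csMed1-/-, so that the members stood near the background of these libraries. At a threshold of 1.5-fold, which 53.5% of all genes passed (29.7% lower and 23.7% higher), Ehd4 joined Cav1 and Sdpr among the lower members, and Cav3 and Prkcdbp were higher. At 4-fold, which 9.46% of all genes passed (5.14% lower and 4.32% higher), 0 members were left. The median log2 ratio was -0.15 over the 8 members and -0.07 over all genes kept. Fewer cells of a type and less RNA per cell cannot be told apart in RNA of whole hearts.

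**Figure D1:**
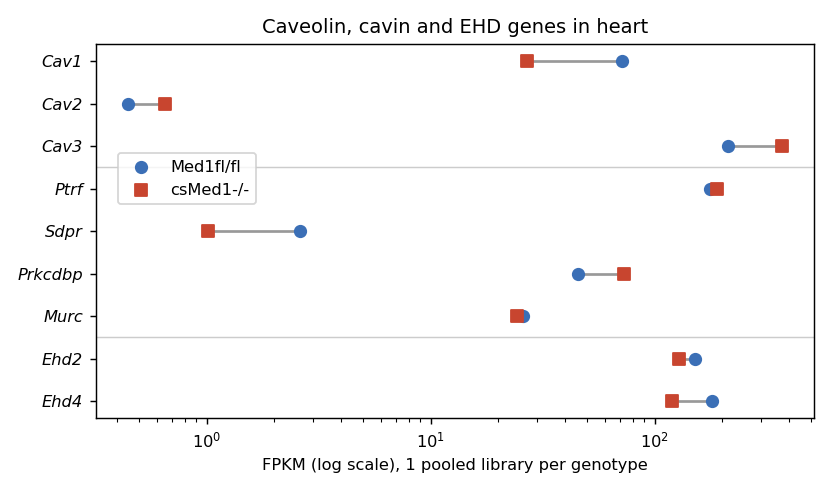
FPKM of the 9 genes on a log scale, with circles for the Med1fl/fl library and squares for the csMed1-/- library, and grey lines between the 2 values of a gene. Cav1 and Sdpr move to the left and Cav3 and Prkcdbp to the right, while Ptrf and Murc nearly overlap.

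Cav3 (chromosome 6, 112459505 to 112472872, plus strand in GRCm38), the muscle caveolin, was the most abundant of the 9 genes in both libraries. It had 211.9 FPKM in Med1fl/fl and 369.7 FPKM in csMed1-/- heart, at a ratio of 1.75 that stayed inside 2-fold. Among the genes kept it ranked 494 in level in Med1fl/fl and 338 in csMed1-/- heart. Of all genes kept, 82.4% had a lower ratio than Cav3.

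Cav1 (chromosome 6, 17306335 to 17341452, plus strand), the scaffold of caveolae outside striated muscle cells, moved the other way. It had 71.9 FPKM in Med1fl/fl and 27.0 FPKM in csMed1-/- heart, at a ratio of 0.375 or a level 2.66-fold lower. Its rank in level went from 1272 to 2778. Of all genes kept, 10.7% had a lower ratio.

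Cav2 (chromosome 6, 17281185 to 17289115, plus strand), the partner with which caveolin-1 forms mixed oligomers, lies 17.2 kb before Cav1 on the same strand. It had 0.447 FPKM in Med1fl/fl and 0.652 FPKM in csMed1-/- heart, below the minimum of 1 FPKM, and its log2 ratio of 0.55 was therefore not counted. At the estimated depth these levels stand for about 70 and 140 fragments. Cav2 was at 0.00622 times the level of its neighbour Cav1 in Med1fl/fl and at 0.0242 times in csMed1-/- heart, so the adjacent genes were far apart in level in both libraries.

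Since Cav3 was higher and Cav1 lower, the make-up of the caveolin transcripts differed between the libraries. Cav3 supplied 74.6% of the summed caveolin FPKM in Med1fl/fl and 93.0% in csMed1-/- heart, and Cav1 supplied 25.3% and 6.79%. The sum of the 3 caveolins was 284.2 FPKM in Med1fl/fl and 397.4 FPKM in csMed1-/- heart. The ratio of Cav3 to Cav1 inside a library, which does not depend on how a library was scaled, was 2.95 in Med1fl/fl and 13.7 in csMed1-/- heart, a difference of 4.65 times. This was the largest of the 8 differences between pairs of members that were computed. That rank follows from Cav3 having the highest and Cav1 the lowest ratio of the members.

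**Figure D2:**
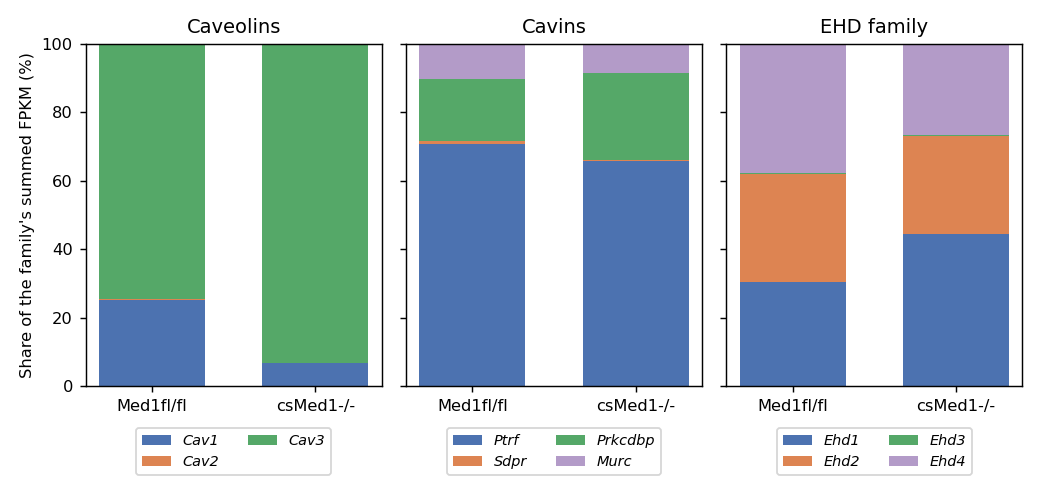
Share of each gene in the summed FPKM of its family, in percent, for the caveolins, the cavins and the 4 EHD genes, with one bar per library. Cav3 takes 93.0% of the caveolin bar in csMed1-/- heart. In the cavin bars, Med1fl/fl first, Ptrf is at 70.7% and 65.9%, Prkcdbp at 18.0% and 25.3%, Murc at 10.2% and 8.46%, and Sdpr at 1.04% and 0.350%.

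Ptrf (chromosome 11, 100956733 to 100970887, minus strand), the cavin that caveolae need in every tissue, was the most abundant cavin. It had 177.4 FPKM in Med1fl/fl and 190.1 FPKM in csMed1-/- heart, at a ratio of 1.07. Its rank in level was 587 in both libraries. Murc (chromosome 4, 48663514 to 48673502, plus strand), the muscle cavin, had 25.7 FPKM in Med1fl/fl and 24.4 FPKM in csMed1-/- heart, at a ratio of 0.949. The cavin coat gene and the muscle cavin thus had the ratios nearest to 1 of the 9 members. The level of Cav3 relative to Murc, both muscle genes, was 8.24 in Med1fl/fl and 15.1 in csMed1-/- heart.

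Sdpr (chromosome 1, 51289126 to 51302960, plus strand) encodes cavin-2, which promotes membrane curvature and is prominent in endothelial cells. It was the scarcest cavin, with 2.60 FPKM in Med1fl/fl and 1.01 FPKM in csMed1-/- heart, a level 2.58-fold lower. These levels correspond to about 450 and 250 fragments at the estimated depth. With a pseudocount of 1 FPKM its log2 ratio went from -1.37 to -0.84, inside 2-fold.

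Prkcdbp (chromosome 7, 105480083 to 105482300, minus strand) encodes cavin-3, a protein that binds protein kinase C delta. It had 45.3 FPKM in Med1fl/fl and 73.2 FPKM in csMed1-/- heart, at a ratio of 1.61 inside 2-fold. Relative to Ptrf, Prkcdbp was at 0.255 in Med1fl/fl and 0.385 in csMed1-/- heart, while Sdpr was at 0.0147 and 0.00531. The summed FPKM of the 4 cavins was 251.1 in Med1fl/fl and 288.7 in csMed1-/- heart. Cav1 stood at 0.405 times the level of Ptrf in Med1fl/fl and at 0.142 times in csMed1-/- heart.

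Ehd2 (chromosome 7, 15946958 to 15967567, minus strand) had 151.0 FPKM in Med1fl/fl and 128.8 FPKM in csMed1-/- heart, at a ratio of 0.853. Ehd4 (chromosome 2, 120089175 to 120154606, minus strand) had 180.7 FPKM in Med1fl/fl and 119.1 FPKM in csMed1-/- heart, at a ratio of 0.659. Neither ratio passed 2-fold. The relative Ehd1, which acts in endosomal recycling, had 145.6 FPKM in Med1fl/fl and 199.5 FPKM in csMed1-/- heart. Ehd1 made up 30.4% of the summed EHD FPKM in Med1fl/fl and 44.4% in csMed1-/- heart, and Ehd4 37.7% and 26.5%. The sum of the 4 EHD genes was 478.7 FPKM in Med1fl/fl and 449.1 FPKM in csMed1-/- heart.

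In Med1fl/fl heart the order of levels was Cav3, Ehd4, Ptrf, Ehd2, Cav1, Prkcdbp, Murc, Sdpr and Cav2. In csMed1-/- heart it was Cav3, Ptrf, Ehd2, Ehd4, Prkcdbp, Cav1, Murc, Sdpr and Cav2. Neighbours in these orders cannot be set against a spread between libraries, because none was measured. Cav1 moved from above Prkcdbp to below it, and Ehd4 from above Ptrf and Ehd2 to below both.

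**Figure D3:**
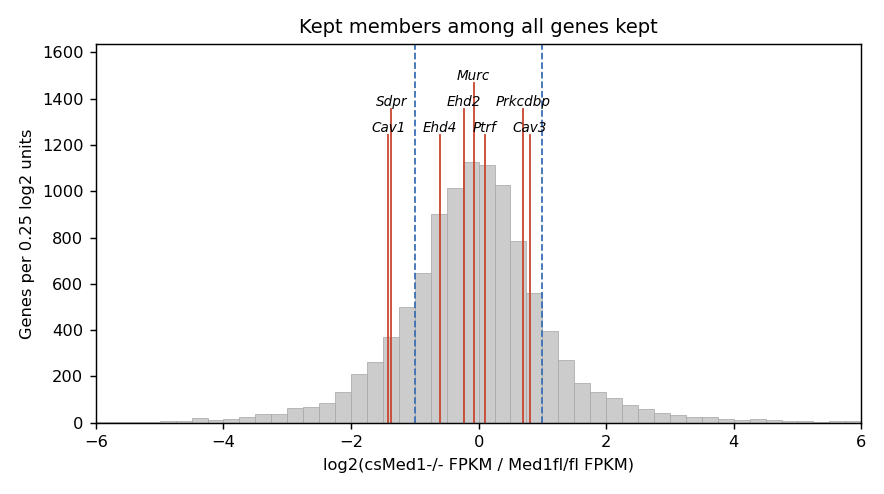
Distribution of the log2 ratio of csMed1-/- to Med1fl/fl FPKM over the genes kept, in bins of 0.25, drawn from -6 to 6. Red lines mark the 8 members kept and dashed lines a change of 2-fold, which Cav1 and Sdpr pass on the lower side.

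Genes that work with caveolae were taken as 4 lists of 49 genes in all, of which 40 passed the filter. Of these 40 genes 10 were lower and 5 higher by more than 2-fold, beside 18.0% lower and 13.6% higher among all genes kept. The single lists are short, and their counts below stand beside the same shares. The median log2 ratio of the 40 genes was -0.07, as it was over all genes kept. The proteins of the caveolar neck and of membrane scission, the other EHD genes, the PACSIN proteins and the dynamins, held 6 genes that passed the filter. Of these 0 were past 2-fold. Their log2 ratios ran from -0.43 (Pacsin2) to 0.62 (Dnm2, the dynamin present in all tissues), with a median of 0.24. Pacsin3, the muscle PACSIN that binds caveolae, had 82.4 FPKM in Med1fl/fl and 87.7 FPKM in csMed1-/- heart.

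Of the 4 raft and anchor genes, which were the flotillins Flot1 and Flot2, the filamin Flna and stomatin (Stom), 1 was lower by more than 2-fold and 0 were higher. Stom, which encodes a hairpin membrane protein like the caveolins, had 90.9 FPKM in Med1fl/fl and 29.8 FPKM in csMed1-/- heart. Flot1 had 143.0 and 78.3 FPKM, and Flot2 99.8 and 108.6 FPKM in the same order.

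Of 10 genes of the muscle membrane that passed the filter, 3 were lower and 0 higher by more than 2-fold, with a median log2 ratio of -0.24. Tcap, which encodes the titin cap protein telethonin, had 2235 FPKM in Med1fl/fl and 646.4 FPKM in csMed1-/- heart. Trim72, the gene of the membrane repair protein MG53 that works with caveolin-3, had 226.1 FPKM in Med1fl/fl and 67.7 FPKM in csMed1-/- heart. Dysf, which encodes the repair protein dysferlin, had 54.7 FPKM in Med1fl/fl and 25.1 FPKM in csMed1-/- heart. The other 7 genes kept, inside 2-fold, had log2 ratios from -0.63 (Jph1, a junctophilin) to 0.30 (Popdc3, a Popeye protein gene). Myof, the gene of the dysferlin relative myoferlin, had 0.472 FPKM in Med1fl/fl and 0.722 FPKM in csMed1-/- heart and did not pass the filter.

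Receptors, channels, kinases and other proteins known to lie in caveolae or to bind caveolin varied the most. Of 20 that passed the filter, 6 were lower and 5 higher by more than 2-fold, with log2 ratios from -2.11 to 2.31 and a median of -0.07. Igf1r, the receptor of insulin-like growth factor 1, had 1.64 FPKM in Med1fl/fl and 8.12 FPKM in csMed1-/- heart. Plvap, which forms the diaphragms of endothelial caveolae, had 14.0 FPKM in Med1fl/fl and 43.4 FPKM in csMed1-/- heart. Src, the kinase that phosphorylates caveolin-1, had 2.62 FPKM in Med1fl/fl and 7.91 FPKM in csMed1-/- heart.

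The lowest ratios in this list belonged to genes of cardiomyocyte excitation. Adrb1, the β1-adrenergic receptor, had 13.0 FPKM in Med1fl/fl and 3.01 FPKM in csMed1-/- heart. Cacna1c, the pore of the L-type calcium channel, had 24.7 FPKM in Med1fl/fl and 6.68 FPKM in csMed1-/- heart. Nos3, the endothelial nitric oxide synthase that caveolin-1 inhibits, had 23.6 FPKM in Med1fl/fl and 30.4 FPKM in csMed1-/- heart, and its log2 ratio of 0.36 lay inside 2-fold.

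**Figure D4:**
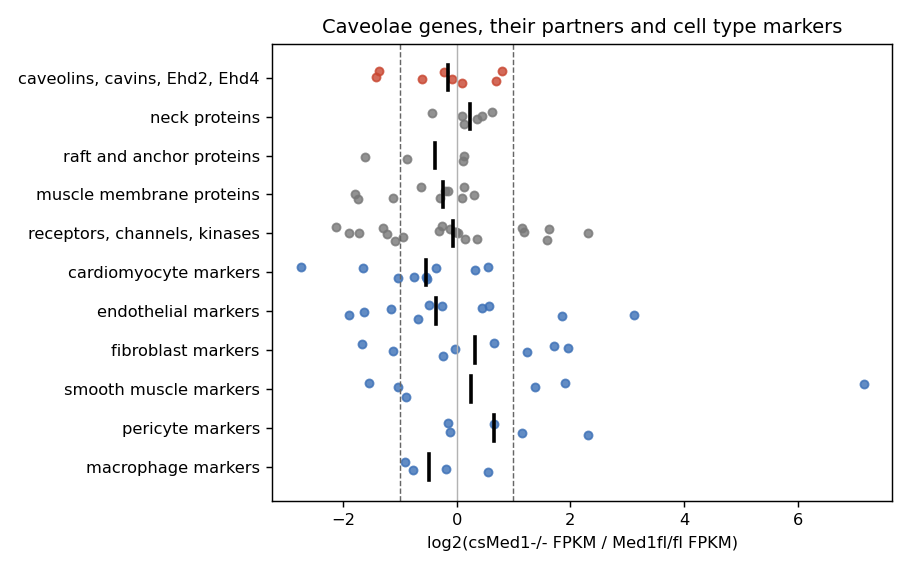
Log2 ratio of csMed1-/- to Med1fl/fl FPKM for genes that passed the filter, with one point per gene and a black bar at the median of each list. Dashed lines mark 2-fold. The 8 members lie between -1.41 and 0.80, within the range of the receptors, channels and kinases and of the endothelial markers.

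Markers of the cells of the heart were read beside the members, and their counts stand beside 18.0% lower and 13.6% higher among all genes kept. Of 9 cardiomyocyte markers that passed the filter, 3 were lower and 0 higher by more than 2-fold, with a median log2 ratio of -0.53. Myl2 had 20467 FPKM in Med1fl/fl and 6571 FPKM in csMed1-/- heart, and Myl3 17340 and 10278 FPKM. The summed level of the list was 57722 FPKM in Med1fl/fl and 37390 FPKM in csMed1-/- heart. Actc1, cardiac actin, is listed at 0 in the Med1fl/fl library, although every cardiomyocyte uses it, and at 9189 FPKM in csMed1-/-. Without it the sum in csMed1-/- heart was 28201 FPKM.

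Cav3, Ptrf and Murc had higher ratios than the median cardiomyocyte marker, which had a log2 ratio of -0.53. So did Prkcdbp and Ehd2, and the median of all genes kept, at -0.07, also lay above that marker. The markers were widely spread, with log2 ratios from -2.74 (Tnni3) to 0.56 (Actn2), and Tnnc1 was also above 0, at 0.33. Ptrf and Murc lay inside this range and Cav3 above it. When the ratios were centred on these markers, Cav3 and Prkcdbp stood more than 2-fold higher, with log2 ratios of 1.34 and 1.22, and Cav1 and Sdpr came to -0.88 and -0.83, inside 2-fold. The part of the cardiomyocyte markers in the member ratios was not tested.

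The 10 endothelial markers moved in both directions, with 3 lower and 2 higher by more than 2-fold and a median log2 ratio of -0.37. Cldn5, a tight junction protein, had 56.6 FPKM in Med1fl/fl and 490.3 FPKM in csMed1-/- heart, and Egfl7 103.0 and 139.8 FPKM. The 3 lower markers, Kdr, Tek and Emcn, had log2 ratios of -1.64, -1.90 and -1.15, and the 2 higher ones, Vwf and Cldn5, had 1.85 and 3.12. The other 5 lay between -0.67 (Tie1) and 0.56 (Esam). The ratios of Cav1 and Sdpr thus fell within a list that ran both ways. The sum of the list was 655.6 FPKM in Med1fl/fl and 1061 FPKM in csMed1-/- heart. Without Cldn5 it was 599.0 and 571.0 FPKM. The part of endothelial cells in the lower Cav1 and Sdpr was not tested.

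Of 8 fibroblast markers 2 were lower and 3 higher by more than 2-fold, and their sum was 543.0 FPKM in Med1fl/fl and 1179 FPKM in csMed1-/- heart. Col1a1 had 129.5 and 501.7 FPKM, and Col1a2 95.7 and 314.3 FPKM, and these collagen genes made up most of the rise of the sum. Tcf21 was also higher, with 10.9 and 25.6 FPKM. The 2 lower markers were Dpt, with 41.3 and 13.1 FPKM, and Lum, with 8.04 and 3.72 FPKM. Col3a1, Dcn and Pdgfra lay inside 2-fold, with log2 ratios of 0.66, -0.24 and -0.02. Of 6 smooth muscle markers 2 were lower and 3 higher, and of 5 pericyte markers 0 were lower and 2 higher. The smooth muscle list summed to 2594 FPKM in Med1fl/fl and 5916 FPKM in csMed1-/- heart. Its rise came mostly from Des, which cardiomyocytes also express, at 1871 and 4851 FPKM, and from Cnn1 at 4.32 and 622.4 FPKM. Tagln was higher as well, at 23.8 and 89.7 FPKM. Acta2 was lower inside 2-fold, at 572.6 and 310.0 FPKM. The 2 markers lower by more than 2-fold were Smtn and Myh11, with log2 ratios of -1.53 and -1.035. The pericyte list summed to 113.1 and 200.4 FPKM, with Mcam at 17.5 and 87.2 FPKM and Pdgfrb at 49.6 and 45.9 FPKM. Of 4 macrophage markers that passed the filter 0 lay past 2-fold, and the list summed to 154.8 FPKM in Med1fl/fl and 107.6 FPKM in csMed1-/- heart, with Lyz2 at 115.7 and 68.0 FPKM and Csf1r at 24.3 and 21.3 FPKM.

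Adipocytes are rich in Cav1, Cav2 and Ptrf, and all 6 of their markers were listed at 0 in Med1fl/fl. In csMed1-/- heart Retn, Lep and Cfd were listed at 0, and the highest value was 0.0101 FPKM, for Adipoq. Because the Med1fl/fl library also lists Actc1 at 0, a listed 0 there is not read as absence. Of the markers of skeletal muscle, another tissue with Cav3 and Murc, Myod1 and Myog were listed at 0 in both libraries, and the list summed to 6.35 FPKM in Med1fl/fl and 4.64 FPKM in csMed1-/- heart, with Myh1 at 4.05 and 0.471 FPKM and Mylpf at 0.955 and 2.44 FPKM. The mesothelial list summed to 1.55 and 5.03 FPKM, with Wt1 at 1.19 and 1.86 FPKM and Krt19 at 0.313 and 2.93 FPKM.

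**Figure D5:**
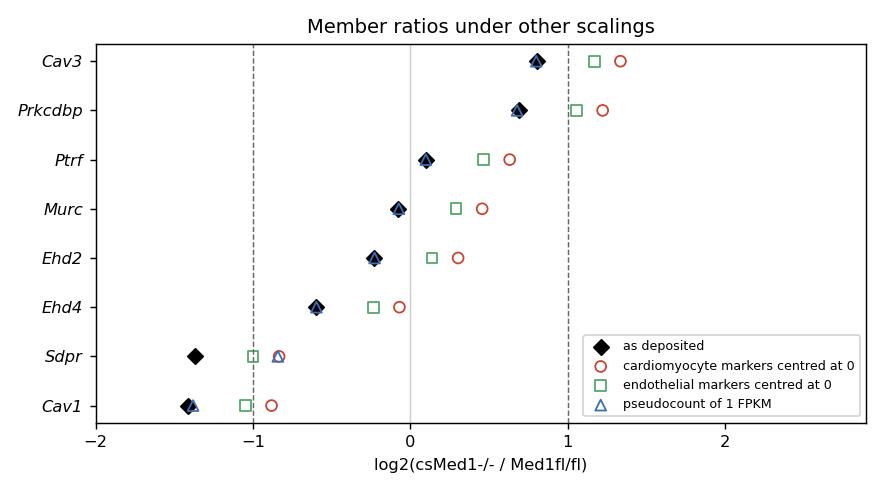
Log2 ratio of csMed1-/- to Med1fl/fl for the 8 members kept, as deposited (diamonds), centred on the median of the cardiomyocyte markers (circles) or of the endothelial markers (squares), and with 1 FPKM added to both values (triangles). Dashed lines mark 2-fold. Under both centrings Cav3 and Prkcdbp pass 2-fold, and Sdpr lies inside it or on it.

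Centring moves all members by the same amount and so leaves their order as it was. Relative to the endothelial markers Cav3 was at a log2 ratio of 1.17, Prkcdbp at 1.06, Cav1 at -1.05 and Sdpr at -1.0, by a narrow margin inside 2-fold. The split of all genes moved with the centring, to 9.22% lower and 27.5% higher relative to cardiomyocyte markers and to 11.3% lower and 22.3% higher relative to endothelial markers, from 18.0% and 13.6% as deposited. The signs of the ratios of Murc and Ehd2, which were below 0 as deposited, turned under both centrings, to 0.46 and 0.30 relative to cardiomyocyte markers and to 0.29 and 0.14 relative to endothelial markers. Ehd4 stayed below 0, at -0.07 and -0.23. Across all 10 alternatives in scaling, pseudocount, filter and rows, the log2 ratio of Cav1 ran from -1.45 to -0.88 and that of Cav3 from 0.77 to 1.34.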

How the data were processed

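Polyadenylated heart RNA was sequenced by the authors as directional 50 nt single-end reads, 1 library for each pool of 5 mice. The authors aligned the reads to mm10 with TopHat 2.0.8b and computed the deposited FPKM values of known genes with Cufflinks and Cuffdiff 2.1.1. The submitters' processing notes also name STAR 2.4.0h, Bowtie2 and DESeq2, with no role given. Which library scaling was used is not given in the sources used here.

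The files hold 23424 rows with 22882 symbols. Rows sharing a symbol, as 412 symbols do, were summed, and each member had 1 row. Ratios of FPKM were taken without a pseudocount, for genes that were at 0 in neither library and reached 1 FPKM in the one or the other, and counted past 2-fold. With 1 library per genotype no p-value was computed, and the number of reads behind a value is known only as an estimate. The estimate took the most frequent low value of FPKM times transcript length, over genes with 1 RefSeq transcript, as 1 read. It covers neither the spread between pools nor error in transcript lengths. The computation was tested on simulated data.

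The members and lists were chosen with earlier results of these data known. The genes named are the 9 members, Med1 and up to 3 genes per partner list with the largest rise and fall past 2-fold. The rule also names the 2 highest markers of each cell type and those at 0 in both libraries. It further names neighbours within 100 kb that passed the filter and the 3 genes nearest in level to Cav3 and to Cav1. Oxtr did not pass the filter and lies outside this rule. Other genes were named after their values were seen. Some listed markers were not analysed here, and 1 gene that the rule names is not reported here. Positions are from GENCODE M21 (GRCm38, the assembly of mm10), and the promoters and neighbours from RefSeq (GRCm38.p6), with the current symbols Cavin1 to Cavin4 matched to the older ones. Values were computed in Python 3.11.15 with pandas 2.3.3, scipy 1.17.1 and numpy 2.4.6, and plotted with matplotlib 3.10.9. The 12 alternatives changed the library scaling, pseudocount, filter, fold threshold or treatment of shared symbols.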

Additional observations from a re-analysis of the deposited data

How the results depend on the processing

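No paired analysis was possible because each genotype has 1 library, and for the same reason no library could be left out. The count of members lower by more than 2-fold, 2 as deposited, was 1 with a pseudocount of 1 FPKM, with a minimum of 10 FPKM and with ratios centred on endothelial markers, and 0 with ratios centred on cardiomyocyte markers and at a 4-fold threshold. The count of members higher, 0 as deposited, was 2 under both centrings on markers and at a 1.5-fold threshold, where 29.7% of all genes were lower and 23.7% higher. Of all genes, 12.3% were lower and 10.3% higher with a pseudocount of 1 FPKM, and 16.3% lower and 15.1% higher with a minimum of 10 FPKM. Of the 40 partner genes kept, 6 were lower under either marker centring. Relative to cardiomyocyte markers 6 of them were higher, and relative to endothelial markers 5 were. Of all genes, 9.22% were lower and 27.5% higher relative to cardiomyocyte markers, and 11.3% lower and 22.3% higher relative to endothelial markers. Among the partner genes that reached a minimum of 10 FPKM, 8 were lower and 1 was higher.

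The median log2 ratio of the members, -0.15 as deposited, was -0.150 with a pseudocount of 1 FPKM, -0.076 with no filter and also with a minimum of 10 FPKM, -0.081 when centred on the median of all genes, -0.190 after scaling to the 75th percentile, -0.171 after scaling to the sum without the 100 highest genes, 0.38 relative to cardiomyocyte markers and 0.215 relative to endothelial markers. Centring on cardiomyocyte markers shifted every log2 ratio by 0.53 and on endothelial markers by 0.37, and this shift moved the counts. The other scalings shifted the ratios by less than 0.1.

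With a pseudocount of 1 FPKM the log2 difference between libraries in a pair of members was 2.18 for Cav3 to Cav1, 1.57 for Cav2 to Cav1, -0.17 for Murc to Ptrf, -0.94 for Sdpr to Ptrf, 0.58 for Prkcdbp to Ptrf, -0.37 for Ehd4 to Ehd2, 0.87 for Cav3 to Murc and -1.48 for Cav1 to Ptrf. The pairs with Cav2 or Sdpr, the genes with the lowest levels, moved most, from 1.96 and -1.47. Keeping the highest row of each symbol in place of the sum changed no value of a member. Cav2 and Sdpr had the fewest estimated fragments of the members, and a pseudocount of 1 FPKM is large beside their levels. The spread between libraries was not measured for any member.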

Other observations

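The genes beside the members on the chromosomes had their own levels. Cav3 and Oxtr, the oxytocin receptor gene, lie 0.811 kb apart, and Oxtr had 0.0510 FPKM in Med1fl/fl and was listed at 0 in csMed1-/- heart. D630042P16Rik, on the other side of Cav3 at 71.3 kb, had 4.994 and 2.004 FPKM. Ptrf lies between Stat3, a transcription factor gene with 48.4 FPKM in Med1fl/fl and 56.5 FPKM in csMed1-/- heart, and Atp6v0a1, a proton pump gene with 49.9 and 74.3 FPKM. Smpd1, the acid sphingomyelinase gene 72.2 kb from Prkcdbp, had 242.4 and 333.2 FPKM, a log2 ratio of 0.46 beside 0.69 for Prkcdbp. Ehd2 is flanked by Gltscr2 and Gltscr1, with log2 ratios of -0.24 and -0.50 beside -0.23 for Ehd2. Pla2g4e, a phospholipase A2 gene 11.8 kb from Ehd4, had 2.72 FPKM in Med1fl/fl and 0.8505 FPKM in csMed1-/- heart.

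The genes nearest to Cav3 in level over the 2 libraries, by distance in log2 FPKM, were Gnai2, an inhibitory G protein subunit gene with 227.5 FPKM in Med1fl/fl and 397.8 FPKM in csMed1-/- heart, Fkbp1a with 207.3 and 334.6 FPKM, and P4hb with 196.0 and 343.3 FPKM. Nearest to Cav1 were Fbxo31 with 75.4 and 26.3 FPKM, Plin4, a lipid droplet protein gene with 75.8 and 26.3 FPKM, and Dlat, a pyruvate dehydrogenase subunit gene with 73.7 and 25.6 FPKM. With 2 values per gene, such likeness describes these libraries and no more.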
